A study of Mus musculus with 4 samples.

Results

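Gpr17, Gpr37, Gpr37l1, Gpr56 and Gpr62 encode G protein coupled receptors known from the oligodendrocyte lineage and, for most of their history, from having no agreed ligand. These 5 genes were taken by symbol from the 23444 gene symbols of the deposited tables, and all 5 passed the filter for testing. RNA came from primary mouse oligodendrocyte precursor cells of a mixed strain background kept for 1 day under differentiating conditions with T3, a thyroid hormone. The 2 control samples share the genotype label lncOL1+/+, lncOL1+/-, with no word on which of these genotypes each one had, and 2 samples labelled lncOL1-/- are here called knockout. lncOL1 is a long noncoding RNA of oligodendrocytes, and the comparison asks which genes differ when it is lost. The labels do not say in which cell type or at which stage lncOL1 was removed, nor whether a group's samples are separate cultures, so each p-value reflects just the spread among these samples, possibly a technical one.

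G protein coupled receptors pass a signal from the cell surface to G proteins, which set cAMP, calcium or the small GTPase RhoA, and receptor kinases and arrestins then switch the receptor off. In the oligodendrocyte lineage Gpr17 is switched on transiently as precursors commit and has to fall again before myelin is made. Gpr37 appears later, in differentiating and myelinating cells, and acts as a brake on their maturation. Gpr37l1, its closest relative, is better known from precursors and astrocytes. Gpr56, an adhesion receptor renamed Adgrg1, keeps precursors dividing through RhoA. Gpr62 is an orphan receptor enriched in oligodendrocytes, with few known functions.

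The 5 receptors did not move together. Gpr62 rose and Gpr37 fell in the knockout, while Gpr17, Gpr37l1 and Gpr56 did not pass the test. Gpr62 was at 3.22 and 2.95 FPKM (fragments per kilobase of transcript, divided by sequencing depth) in the control libraries and at 5.27 and 6.29 in the knockout libraries. Gpr37 was at 14.3 in both control libraries and at 9.52 and 10.1 in the knockout libraries. A gene was called at an adjusted p by limma under 0.05, which took 1.31% of the 11361 genes tested, 0.528% of them higher and 0.783% lower. In bulk samples such as these, fewer cells of a type and less RNA per cell cannot be told apart.

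**Figure D1:**
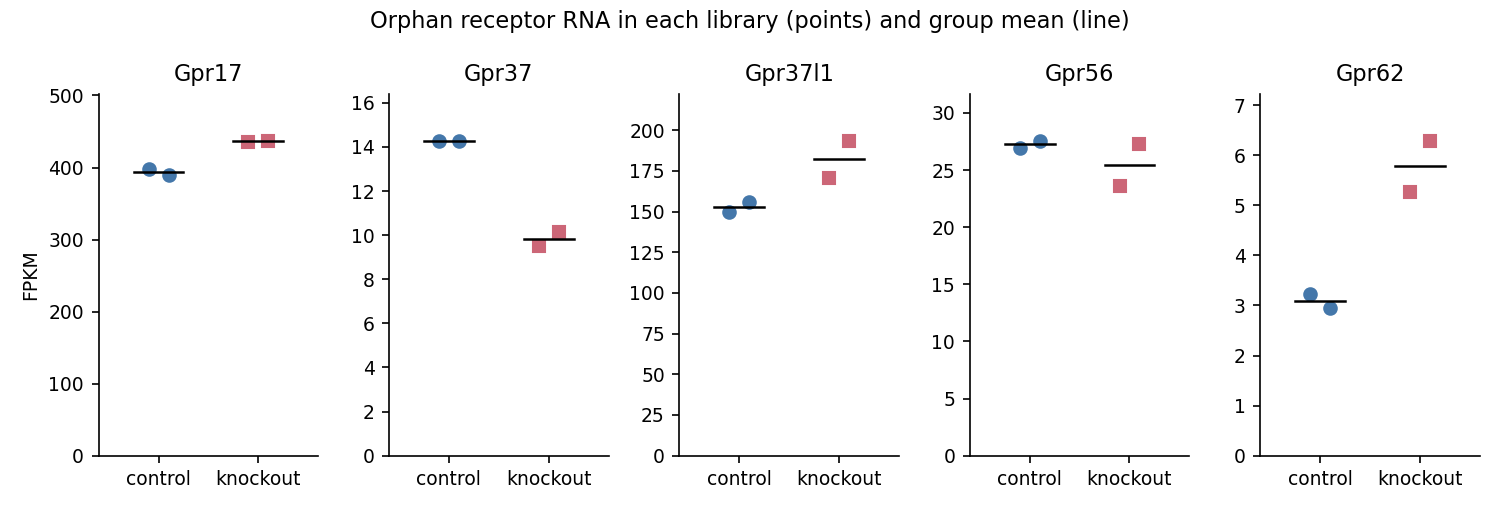
FPKM of each receptor (y axes from 0, on separate scales) in the control (circles) and knockout (squares) libraries, with a line at each group's mean of 2 libraries. Both Gpr37 points of the knockout lie below the control points and both Gpr62 points above, and the groups overlap for Gpr56.

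As a check of the labels, lncOL1 itself (9630013A20Rik) was at 28.9 and 34.0 FPKM in control against 5.54 and 5.06 in knockout. Each library had 11284 to 11357 genes at 1 FPKM or more and a summed FPKM of 372925 to 382573. The number of reads behind a value is not in the files. Ratios among 562 rows of very low FPKM put the other libraries' relative depth at 0.933 to 1.16 of the first control library.

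The promoters of the receptors that changed, and of Gpr37l1 as the relative of Gpr37, are shown because the called receptors changed in opposite directions. The sequences before their RefSeq starts can be set side by side. Windows from the RefSeq promoter table (GRCm38.p6) were taken for 4 of the 5 members, with 2 starts for Gpr56. The 250 bases before the annotated start are printed 5′ to 3′ on the gene's strand, and capitals mark matches to the motifs named after them.
Gpr37, chr6:25689981-25690230, minus strand: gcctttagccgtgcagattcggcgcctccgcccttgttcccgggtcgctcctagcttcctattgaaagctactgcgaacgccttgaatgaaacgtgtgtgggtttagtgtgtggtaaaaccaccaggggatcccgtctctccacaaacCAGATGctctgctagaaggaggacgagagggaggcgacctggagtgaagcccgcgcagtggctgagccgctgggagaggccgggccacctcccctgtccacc
Gpr37l1, chr1:135167682-135167931, minus strand: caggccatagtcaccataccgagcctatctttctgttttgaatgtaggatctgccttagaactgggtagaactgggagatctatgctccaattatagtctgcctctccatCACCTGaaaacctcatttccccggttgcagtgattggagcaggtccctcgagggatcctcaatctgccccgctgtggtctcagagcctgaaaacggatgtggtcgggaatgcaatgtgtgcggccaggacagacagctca
Gpr62, chr9:106465986-106466235, minus strand: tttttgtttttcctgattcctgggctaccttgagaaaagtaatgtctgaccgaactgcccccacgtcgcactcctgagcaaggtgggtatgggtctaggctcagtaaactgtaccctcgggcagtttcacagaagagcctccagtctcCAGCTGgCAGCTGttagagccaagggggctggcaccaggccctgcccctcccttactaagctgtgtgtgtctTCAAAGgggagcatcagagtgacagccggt

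5 motifs were searched on both strands: the E-box CANNTG bound by basic helix-loop-helix factors such as Olig2, the SOX cores AACAAT and ACAAAG, the TCF/LEF core CTTTGA, and the thyroid hormone receptor half-site AGGTCA. The Gpr62 window held 2 adjacent E-boxes, both CAGCTG, starting 102 and 95 bases before the start, and 1 TCF/LEF core 30 bases before it. The Gpr37 window held 1 E-box (CAGATG, 102 bases before the start) and the Gpr37l1 window 1 (CACCTG, 140 bases before). In the GENCODE M21 annotation Gpr37 starts further upstream, at base 25690729, and its window lies inside the gene. Gpr62 starts further downstream in that annotation, at base 106465938, and not next to its window. The Gpr37 and Gpr62 distances thus hold for the RefSeq starts alone. None of these 3 windows held either SOX core or the half-site. Among 32851 promoter windows of the same length, 66.2% held an E-box, 13.8% the TCF/LEF core, 9.42% and 16.5% the SOX cores and 14.0% the half-site, so an E-box was usual. Gpr37 had 16 CG dinucleotides, against 7 in Gpr37l1, 5 in Gpr62 and a median of 6 over all windows. A match describes these letters and is not a binding site, and a missing match says only that the letters are not in the window.

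FPKM is scaled to transcript length, so levels can be set beside each other. The order was Gpr17, Gpr37l1, Gpr56, Gpr37 and Gpr62 from highest to lowest in each of the 4 libraries, and no 2 neighbours in that order overlapped in range. Gpr17 ranked 115 of the 11361 tested genes by mean FPKM and Gpr37l1 340, which places both among the more abundant RNAs of these cells. Gpr56 ranked 2844, Gpr37 5372 and Gpr62 8540. The summed FPKM of the 5 receptors was 592.5 and 590.6 in control against 644.6 and 674.4 in knockout. Gpr17 made up 64.8% to 67.6% of that sum and Gpr62 less than any other member, 0.500% to 0.933%.

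Gpr17 (chromosome 18, 31942999 to 31949636, mm10), the receptor of committed precursors, did not pass the test. It was at 398 and 389.8 FPKM in the control libraries and at 435 and 437 in the knockout libraries. The 2 knockout libraries were close together and both lay above the control libraries, in a table where the groups did not overlap for 43.4% of the genes tested. The means were 394 ± 6.08 in control against 436 ± 1.21 in knockout (SD, n = 2 each), or a log2 fold change of 0.15 (SE 0.066, 95% interval -0.01 to 0.31, adjusted p by limma = 0.404). A rise of more than 0.31 on the log2 scale thus lay outside the interval, while no change lay inside it. The authors' deposited table has 447 FPKM for control and 468 for knockout, with q = 0.873.

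Gpr37 (chromosome 6, 25668523 to 25689980), the brake on maturation, was lower in the knockout. The 2 control libraries differed by less than the last digit given above, and both knockout libraries lay well below them. The means were 14.3 ± 0.00403 in control against 9.83 ± 0.441 in knockout (SD, n = 2 each), a ratio of 0.689 and a log2 fold change of -0.50 (SE 0.071, 95% interval -0.67 to -0.33, adjusted p by limma = 0.0300). Of all tested genes, 2.24% had a change at least as large in either direction. The authors' deposited table also calls it, with a log2 fold change of -0.62 and q = 3.01e-07, where 5.78% of genes with a usable test were called. The limma call was lost with no filter on low values (adjusted p = 0.103) and with each of the 4 libraries left out in turn (adjusted p 0.197 to 0.220), while the log2 fold change stayed between -0.54 and -0.46.

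Gpr37l1 (chromosome 1, 135160250 to 135167681), which shares its closest sequence kinship with Gpr37, had values on the other side. It was at 149.7 and 156 FPKM in control against 171 and 194 in knockout. The groups did not overlap, and the 2 knockout libraries lay further apart than the control libraries. The log2 fold change was 0.25 (SE 0.083, 95% interval 0.05 to 0.45, unadjusted p = 0.0219, adjusted p by limma = 0.257), so it was not called, and 13.7% of tested genes had an unadjusted p under 0.05. The authors' deposited table gives a log2 fold change of 0.12 and q = 0.420.

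Within each library the level of Gpr37 relative to Gpr37l1 does not depend on how libraries are scaled. The ratio of Gpr37 to Gpr37l1 was 0.0954 and 0.0915 in control against 0.0558 and 0.0524 in knockout. The ratio of Gpr37 to Gpr62 went further, from 4.43 and 4.83 to 1.81 and 1.61, which follows from their opposite changes and is no separate result. Gpr37 RNA was thus over 4 times that of Gpr62 in both control libraries and under 2 times in both knockout libraries. With 2 libraries against 2, the exact two-sided permutation test cannot go below p = 0.333, which is the value for both ratios (0.370 with Benjamini-Hochberg adjustment over the 10 pairs of members). The groups did not overlap for 9 of the 10 pairs. These pairs share members, so they are not separate results, and the share over all pairs of genes was not computed. Of single genes tested, 43.4% had groups that did not overlap. The ratio of the most abundant members, Gpr17 over Gpr37l1, overlapped between the groups, at 2.66 and 2.50 in control against 2.55 and 2.26 in knockout.

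Gpr56 (chromosome 8, 94977109 to 95014208), the adhesion receptor of dividing precursors, did not pass the test. It was at 26.9 and 27.6 FPKM in control against 23.6 and 27.3 in knockout. The groups overlapped, and knockout replicate 1 was the low library. The log2 fold change was -0.10 (SE 0.087, 95% interval -0.31 to 0.11, adjusted p by limma = 0.712), and leaving out knockout replicate 1 gave 0.0025, leaving out knockout replicate 2 gave -0.20. The authors' deposited table gives a log2 fold change of -0.20 and q = 0.126.

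Gpr62 (chromosome 9, 106463960 to 106465940), the least abundant of the 5, had the largest change among them. Both knockout libraries lay above both control libraries, and the knockout libraries differed by more than the control libraries did. The means were 3.09 ± 0.190 in control against 5.78 ± 0.720 in knockout (SD, n = 2 each), a ratio of 1.87. The log2 fold change was 0.73 (SE 0.10, 95% interval 0.49 to 0.97, adjusted p by limma = 0.0263), and 1.19% of tested genes had a change at least as large. The authors' deposited table has the same direction, with 2.25 FPKM in control, 3.96 in knockout and a log2 fold change of 0.81, but it does not call the gene (q = 0.503). The limma call was lost with no filter on low values (adjusted p = 0.135) and with each of the 4 libraries left out (adjusted p 0.10 to 0.229), at log2 fold changes of 0.62 to 0.84.

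**Figure D2:**
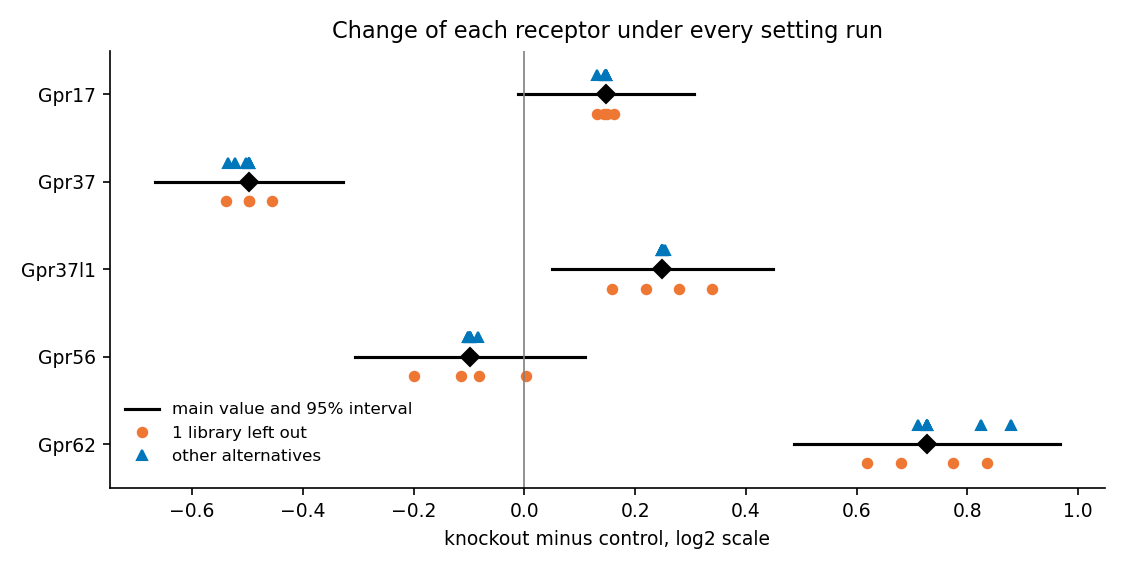
Change of each receptor (knockout minus control, log2 scale on the x axis). Diamonds with bars are the values reported with their 95% intervals, triangles the other alternatives and circles the fits with 1 library left out. Gpr37 stays between -0.54 and -0.46 and Gpr62 between 0.62 and 0.88 in all of them, and Gpr56 reaches 0.0025 with 1 library left out.

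Both Gpr62 and Gpr17 overlap a gene on the opposite strand in GENCODE M21. The strand setting is not given, so it is not known whether reads from the shared bases were told apart. The single exon of Gpr62 shares its last 51 bases, 2.58% of its length, with the final exon of Pcbp4, which encodes an RNA-binding protein. Pcbp4 was far more abundant than Gpr62, at 189 and 191 FPKM in control against 165 and 196 in knockout. Its groups overlapped, with a log2 fold change of -0.08 (adjusted p by limma = 0.810). The authors' deposited table calls Pcbp4 lower, with a log2 fold change of -0.20 and q = 0.0364.

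Gpr17 lies within Lims2, which encodes an adaptor of integrin signalling, and shares 188 bases, 3.62% of its exon length, with exons of that gene. Here the receptor was the more abundant partner. Lims2 was at 30.2 and 32.6 FPKM in control against 44.6 and 49.7 in knockout, and both knockout libraries lay above both control libraries. It was called higher, with a log2 fold change of 0.57 (SE 0.083, adjusted p by limma = 0.0329), whereas the authors' deposited table gives q = 0.847. How reads were shared between these partners was not tested. Gpr37, Gpr37l1 and Gpr56 overlap no other annotated gene.

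**Figure D3:**
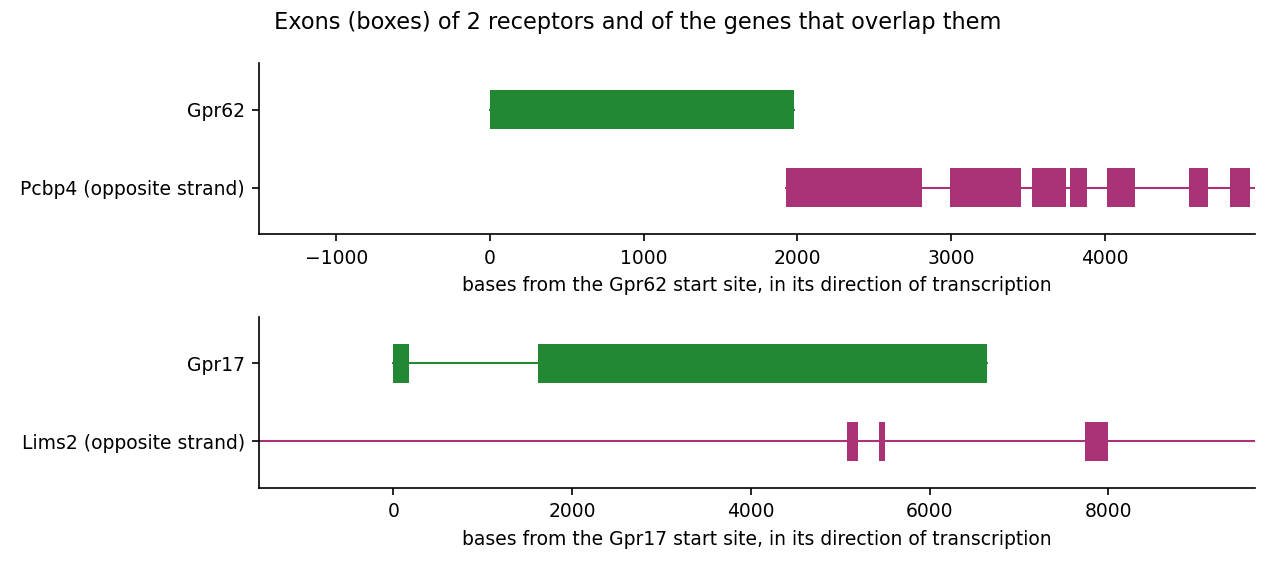
Annotated exons (boxes) of Gpr62 with Pcbp4 and of Gpr17 with Lims2, by distance in bases from the receptor's start site on the x axis. The overlap of Gpr62 is confined to its last 51 bases, and that of Gpr17 to 188 bases of its long second exon.

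Among all genes named Gpr with a number, the 5 receptors supplied most of the RNA. There were 93 such symbols, of which 29 passed the filter, and 12 were listed at 0 in all 4 libraries. The 5 members made up 73.5% to 75.8% of the summed FPKM of the 93. Gpr17 and Gpr37l1 ranked 1 and 2, Gpr56 ranked 4, Gpr37 11 and Gpr62 19. Several of these symbols, such as Gpr107 and Gpr89, belong to membrane proteins of the Golgi and not to classical receptors. Between Gpr37l1 and Gpr37 lay, apart from Gpr56, Gpr137 (35.4 and 37.5 FPKM in control against 36.8 and 44.8 in knockout), Gpr107, Gpr19, Gpr89, Gpr125, Gpr180 and Gpr155, and the last 6 of these had 11.1 to 23.4 FPKM over the 4 libraries. Another 7 symbols lay between Gpr37 and Gpr62.

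None of the 24 other Gpr genes tested was called by limma, where 1.31% of all genes were. At an unadjusted p under 0.05, 1 was higher and 1 lower (8.33%, against 13.7% of all genes), and the authors' deposited table calls 0 of them. Their median log2 fold change was 0.0078, beside 0.0046 for all genes tested. The lower one was Gpr155, at 12.8 and 13.5 FPKM in control against 11.2 and 11.1 in knockout (adjusted p by limma = 0.228). The higher one, Gpr85, an orphan receptor of the brain named after its values were seen, was at 7.77 and 8.65 in control against 9.58 and 9.50 in knockout.

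**Figure D4:**
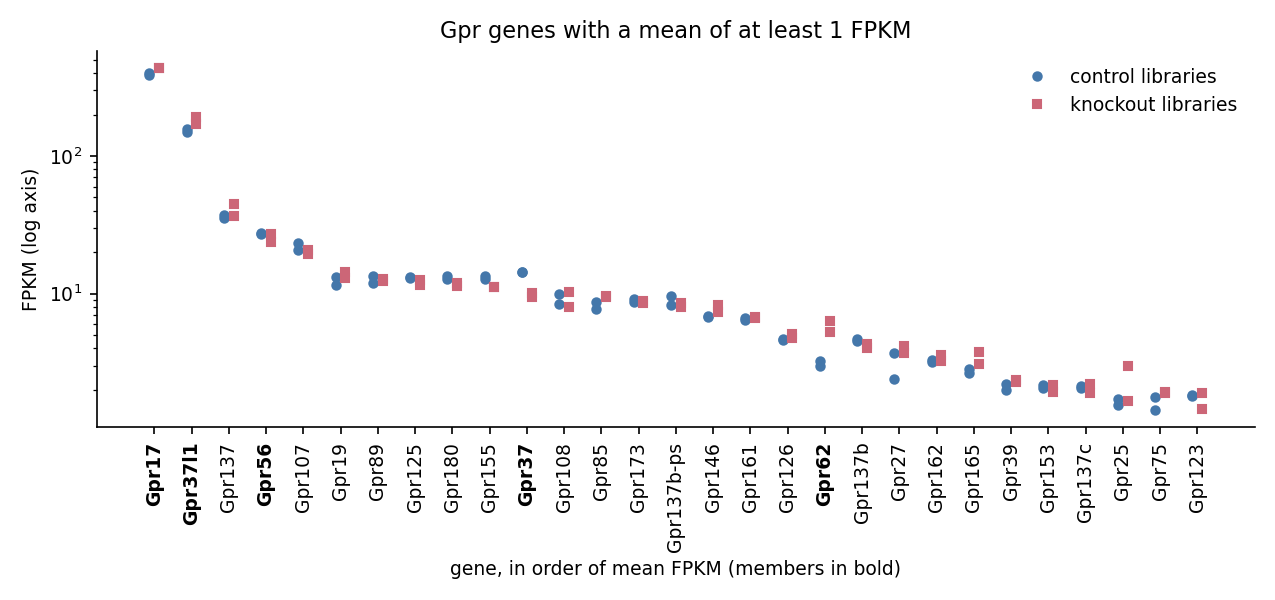
FPKM (log axis) of the 29 Gpr genes that averaged 1 FPKM or more, in order of their mean, in the control (circles) and knockout (squares) libraries. Gpr17 and Gpr37l1 stand above the rest, and the groups are visibly apart for Gpr37 and Gpr62.

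Gpr56 belongs to the adhesion receptors, which carry a long extracellular part that is cut from the rest. Of 31 family members listed, 29 had a matching symbol, 14 were tested, 1 rose and 0 fell (7.14%, against 1.31% of all genes). The one that rose was Emr1, the macrophage antigen known as F4/80, at 0.846 and 0.875 FPKM in control against 2.11 and 2.48 in knockout (log2 fold change 0.82, adjusted p by limma = 0.0218). Its control values were under the filter of 1 FPKM, so it was tested only because of its knockout values. The call and the share of 7.14% rest on that entry and are not support for a change of the family. It was the only called gene among the 14, and the list's median log2 fold change was 0.05. The family's most abundant members were Bai2, with 51.9 to 65.1 FPKM (log2 fold change 0.20, adjusted p by limma = 0.371), and Lphn1, a latrophilin, with 43.0 to 46.6 (log2 fold change 0.04, adjusted p by limma = 0.900). Celsr3, a planar polarity cadherin, had the next smallest p, with a log2 fold change of 0.25 (adjusted p by limma = 0.353).

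Proposed ligands and partners of the receptors were present to very different extents. Psap, whose product prosaposin is a proposed ligand of Gpr37 and Gpr37l1, was abundant, at 265 and 256 FPKM in control against 245 and 256 in knockout (log2 fold change -0.06, adjusted p by limma = 0.810). The Gpr56 ligands were not: Col3a1, a collagen, was at 0.184 to 0.421 and Tgm2, transglutaminase 2, at 0.487 to 0.794, both under the filter. Park2, the ubiquitin ligase parkin that acts on the Gpr37 protein, was also under it. Cd9, a tetraspanin related to the Gpr56 partner Cd81, was at 340.5 and 348 FPKM in control against 431 and 417 in knockout. Both knockout libraries of Cd9 were above both control libraries, and it did not pass over all genes (log2 fold change 0.30, adjusted p by limma = 0.109), although the authors' deposited table calls it with q = 0.00722. Of 7 tested ligand and partner genes 0 were called, against 1.31% of all genes. By unadjusted p under 0.05, 1 was higher and 0 lower (14.3%, against 13.7% of all genes), and the median log2 fold change was -0.04. Ptch1, a reported partner of Gpr37l1, had a log2 fold change of -0.15 (adjusted p by limma = 0.413).

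No gene of the signalling lists downstream of the receptors was called by limma, where 1.31% of all genes tested were. With so low a share, few calls would be found in lists of this size. Of 23 tested G protein subunits, 2 were higher and 1 lower by unadjusted p under 0.05 (13.04%, against 13.7% of all genes). Their median log2 fold change was -0.02. The stimulatory alpha subunit gene Gnas was the most abundant, at 669 to 708 FPKM (log2 fold change -0.03, adjusted p by limma = 0.926), followed by Gnb2 (log2 fold change -0.10, adjusted p by limma = 0.697). The smallest p were those of the low-level genes Gng8 and Gnal, with log2 fold changes of 0.46 and 0.27 (adjusted p by limma = 0.154 and 0.198). Gng8 averaged 0.704 FPKM in control and 1.35 in knockout, so it passed the filter only through its knockout values. The authors' deposited table calls 0 of the subunits higher and 2 lower.

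Of 20 tested cAMP genes, 4 were higher and 0 lower by unadjusted p under 0.05 (13.7% of all genes in either direction), and the median was 0.03. Prkar2b, a regulatory subunit of protein kinase A, and the adenylate cyclase gene Adcy3 had log2 fold changes of 0.23 and 0.29 (adjusted p by limma = 0.257 and 0.261). Prkar1a and the catalytic subunit gene Prkaca, the most abundant of the list, were at -0.12 and 0.0044. The authors' deposited table calls 1 of the list, Adcy3 (q = 0.00362).

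Mapk3, which encodes the kinase ERK1, was at 162 and 167 FPKM in control against 125 and 130.1 in knockout. Both knockout libraries were lower, but the gene missed the threshold over all genes (log2 fold change -0.37, SE 0.068, adjusted p by limma = 0.0681), whereas the authors' deposited table calls it with q = 3.72e-09.

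Of 8 tested receptor kinase, arrestin and sorting genes, 2 were higher and 0 lower by unadjusted p under 0.05, 6 had a positive log2 fold change and the median was 0.15, where 5841 of all 11361 genes were positive and 13.7% had such a p. Grk5, a receptor kinase, was at 0.27 and Arrb1, beta-arrestin 1, at 0.20 (adjusted p by limma = 0.209 and 0.296), and the most abundant kinase genes Adrbk1 and Grk6 were at 0.15 and 0.13. The authors' deposited table calls 0 of the list. Of 6 tested genes around Gpr17, 1 was higher and 0 lower by unadjusted p under 0.05, with a median of 0.05. Among these Olig1, which acts upstream of Gpr17, was at 0.08, Olig2 at 0.20, Sox10 at 0.02 (-0.02 after quantile normalization) and Myrf at -0.10. The authors' deposited table calls 1 of these lower, Myrf (log2 fold change -0.21, q = 0.0281), and 0 higher.

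**Figure D5:**
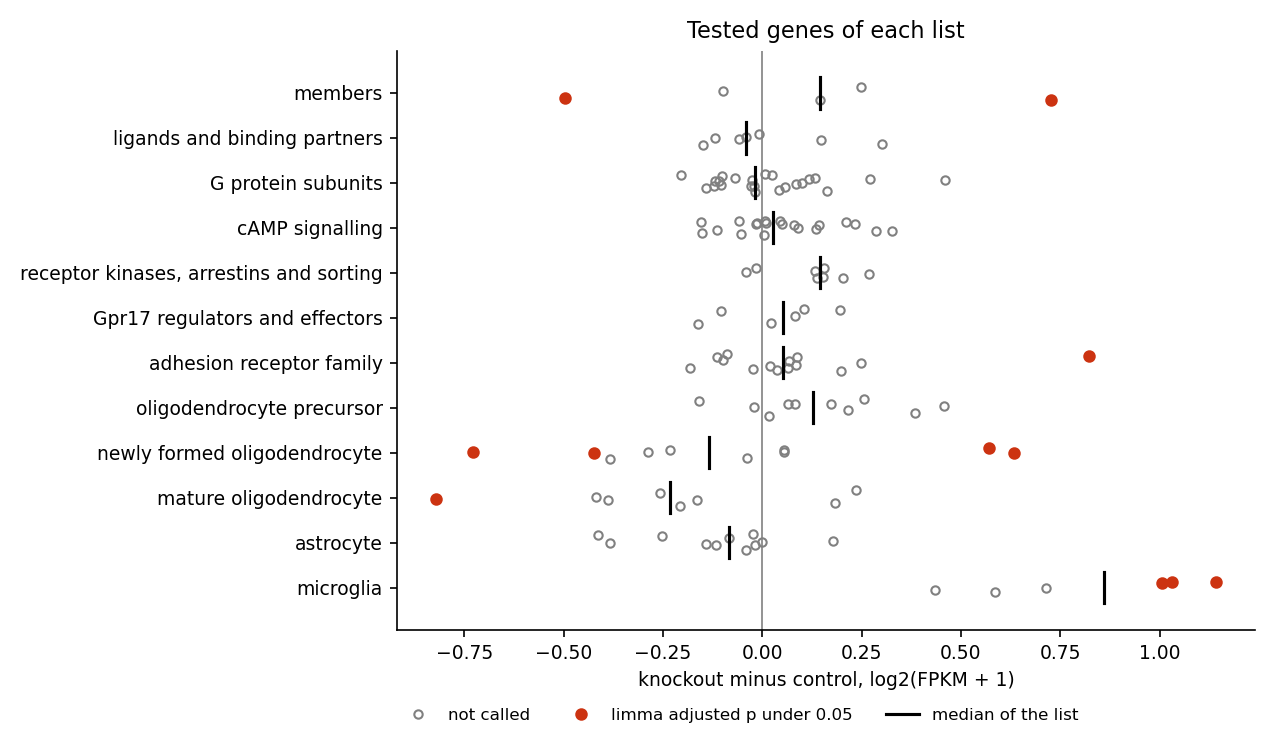
Log2 fold changes (x axis, knockout minus control) of the tested genes of each list, with called genes filled and a bar at each list's median. Called genes lie among the members, the adhesion receptors and the marker lists, and none among the signalling lists.

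Stage and cell type markers were set beside the receptors. Of 8 tested markers of mature oligodendrocytes 1 fell, Mbp (2683 and 2655 FPKM in control against 1501 and 1520 in knockout), and 0 rose, and the list's summed FPKM was 8302 and 8650 in control against 6345 and 6568 in knockout. Among 10 markers of newly formed oligodendrocytes 2 rose (Neu4 and Lims2) and 2 fell (Rras2 and Tmem163), and among 10 of precursors 0 were called. Of all genes tested, 1.31% were called. By unadjusted p under 0.05, the precursor list had 4 higher and 0 lower, and the newly formed list 2 higher and 5 lower. The mature list had 1 higher and 4 lower, where 13.7% of all genes had such a p. The authors' deposited table calls 2 precursor markers higher and 0 lower, 1 newly formed marker higher and 4 lower, and 0 mature markers higher and 3 lower. It calls 5.78% of all genes with a usable test. The summed FPKM of the precursor list was 705 and 724 in control against 779 and 780.3 in knockout. Of its 10 genes 8 had a positive log2 fold change, while the precursor marker Pdgfra was at -0.16 (adjusted p by limma = 0.397). Gpr37 thus moved in the direction of Mbp, and Gpr62 in the other. The mature list itself was mixed. Of its 8 tested markers 2, Mog and Opalin, had positive log2 fold changes (0.18 and 0.23), and neither was called. Whether the stage of the cells has a part in the receptor values was not tested.

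Astrocyte markers are relevant because Gpr37l1 and Gpr56 are also made by astrocytes. Of 12 such genes 11 were tested and limma called 0, against 1.31% of all genes. By unadjusted p under 0.05, 1 was higher and 3 lower (36.4%, against 13.7% of all genes). The authors' deposited table calls 4 of these astrocyte genes lower, and 5.78% of all genes with a usable test. Their summed FPKM was 614 and 584 in control against 577 and 554 in knockout. Gfap, the defining filament gene, was at 196 to 237 FPKM. Gjb6, under the filter and so untested, was nearly absent throughout. Its control values were 0.0549 and 0.0449, and its knockout values were both 0. The groups' sums did not overlap, and just 1 of the 11 tested markers had a positive log2 fold change. The part of astrocytes in the Gpr37l1 and Gpr56 values was not tested.

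Of 12 microglia markers 6 were tested, and 3 rose (Tyrobp, Laptm5 and Fcrls), or 50%, where 1.31% of all genes were called. Their summed FPKM was 11.3 and 12.7 in control against 24.8 and 30.9 in knockout, with no marker at 0 in all libraries. By unadjusted p under 0.05, 5 were higher and 0 lower (83.3%, against 13.7% of all genes). The groups overlapped only for the microglial receptor gene Gpr34, at 0.0523 to 0.121 FPKM, and P2ry12, at 0.0490 to 0.178. The other markers of the list were higher in both knockout libraries. Of all genes tested, 43.4% had groups that did not overlap. Emr1 moved in the same direction as this list, and its part in the values of Emr1 and Gpr62 was not tested. Of 5 tested neuron markers 0 were called, with 3 higher and 0 lower by unadjusted p under 0.05 (60%, against 13.7% of all genes). None of the 8 endothelial and mural markers reached the filter, with a summed FPKM of 0.947 to 1.30.

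The genes whose pattern over the 4 libraries was most like that of each receptor were found by the root mean square difference of log2(FPKM + 1), each centred on its own mean. For Gpr37 they were Cdc42ep2, an effector of the GTPase Cdc42 (difference 0.015), Dock6, an exchange factor (0.017), and Btbd9 (0.022), and 25 genes lay within 0.05. Being chosen for likeness to a called gene, these 3 have its direction and nearly its size by choice. For Gpr62 they were Cplx1, a complexin (0.049), Efs, a Src-family docking protein (0.052), and Matn2, a matrilin (0.053), and 1 gene lay within 0.05. Their log2 fold changes, 0.65, 0.67 and 0.73, likewise follow from the choice. Gpr17, Gpr37l1 and Gpr56 had 958, 173 and 357 genes within 0.05. They also varied less, with a root mean square about their own means of 0.0742, 0.141 and 0.0877. That of Gpr37 was 0.250 and that of Gpr62 0.373. A fixed limit takes in more genes where a pattern is nearly flat, so these counts do not show that a pattern was common. The nearest included Adcy1 and Cpsf1 for Gpr17, Abcg4, Tmem243 and Tmem261 for Gpr37l1, and Syngr2, Cep97 and Trip10 for Gpr56. Likeness over 4 libraries describes those libraries.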

How the data were processed

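RNA of 2 control and 2 knockout samples was measured by RNA sequencing. CASAVA, TopHat, Cufflinks, Cuffdiff and the build mm10 are named in the submitters' processing notes, without versions or options. The authors deposited gene-level FPKM per sample, per the file headers, and a Cuffdiff table with a group FPKM, log2 fold change, p-value and q-value for each gene, which is quoted and not combined with values computed here. Count models do not suit FPKM and were left out.

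Values were summed over the rows of a symbol (258 symbols), and 9 symbols without an OK status were dropped. For the 11361 genes averaging 1 FPKM or more, log2(FPKM + 1) went into limma 3.58.1 under R 4.3.3 (eBayes with an expression trend, 2 residual and 4.6 prior degrees of freedom), with Benjamini-Hochberg adjustment over all genes. Fold changes on this scale understate those of low genes. The script was tested on simulated data. Named genes are the members, called genes, the 2 smallest p and 2 highest levels of each pathway list, the 10 most abundant Gpr genes, and the 3 nearest patterns. 1 pathway list and 1 gene of these are not reported here. Alternatives were another pseudocount (0.1), no filter, other scalings, no trend, a replicate block, 1 row per symbol, and each library left out. The members and lists were chosen with earlier results of these data known.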

Additional observations from a re-analysis of the deposited data

How the results depend on the processing

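149 genes were called in all, and the number depended on the filter and on the libraries. It was 4 with no filter on low values (17397 genes tested), 16 to 42 with 1 library left out, and 341 with the replicate number as a block. The numbers in the labels are not said to pair the samples, and deviations of same-numbered samples correlated at r = -0.052 over 11361 genes, so this replicate block is given only here. Under the block Gpr37 and Gpr62 stayed called (adjusted p = 0.0113 and 0.00662) and the other 3 members did not.

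With no filter, the log2 fold changes of -0.50 for Gpr37 and 0.73 for Gpr62 no longer passed the threshold (adjusted p = 0.103 and 0.135). The other 6 alternatives that kept all libraries left both called. When single libraries were left out, the log2 fold change ranged from 0.13 to 0.16 for Gpr17, -0.54 to -0.46 for Gpr37, 0.16 to 0.34 for Gpr37l1, -0.20 to 0.0025 for Gpr56 and 0.62 to 0.84 for Gpr62, and 0 of the 5 were called. Gpr56 changed sign without knockout replicate 1 (0.0025). Leaving out a library also leaves 1 sample in its group, which is assumed to vary like the others, and 1 residual degree of freedom. Precision rests on 2 libraries a group, and the reads behind each value are not known.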

Other observations

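Of the 93 Gpr symbols, 64 had a mean under 1 FPKM and were not tested. Picked after their values were seen, Gpr135, an orphan receptor, was at 0.380 and 0.662 FPKM in control against 0.796 and 1.21 in knockout, and Gpr15, a receptor of lymphocytes, at 0.291 and 0.435 in control against 0.107 and 0.0921 in knockout. The groups did not overlap for either gene, at levels where few reads can set a value.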
